A study of Mus musculus with 2 samples.

Results

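The 49 genes described here carry cells through mitosis: the kinases and cyclins that start it, the kinetochores and checkpoint that watch chromosome attachment, the spindle motors, the condensins that compact chromosomes, and the proteins that divide the cell. They were listed by function, not by an expression value, out of 12393 genes named on the array, though with earlier results of these data known. Female FVB wild-type mice, 5 weeks old at the start, received the progestin medroxyprogesterone acetate (15 mg under the skin) and were then given the carcinogen DMBA by gavage in 4 weekly doses of 1 mg. From the day after the last dose, the mice ate chow with 0.1% GW9662, an irreversible antagonist of the nuclear receptor PPARγ, or standard chow without it (control). Each diet is represented by 1 Affymetrix mouse expression array, hybridized with pooled mammary tumor RNA of 5 mice. There were therefore no replicate arrays and no statistical test between GW9662 and control, and precision is limited by the number of arrays, 2. Mice, tumors and arrays cannot be told apart as sources of a difference.

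Mitosis begins when cyclin-dependent kinase 1, bound to cyclin B, is switched on by Cdc25 phosphatases. Chromosomes are then compacted, attached to the spindle under the watch of the checkpoint, and released for separation when the anaphase-promoting complex marks securin and cyclin B for destruction. Most of the genes involved are transcribed only as a dividing cell nears mitosis and are silent in resting cells, so in a tumor their RNA is widely read as a trace of dividing cells.

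Signals of nearly all the mitotic genes were higher in tumors from GW9662-treated animals, by up to 2.15-fold. Of the 49 genes, 47 had at least 1 probe set (a group of short oligonucleotides that reads part of a transcript) named for that gene alone, 90 probe sets in all, while Ccnb1 and Cdca8 were not analysed here. Values are those of a gene's brightest probe set (by mean signal). With no minimum on the signal, 46 of the 47 genes were higher in GW9662 than in control tumors, against 50.2% of all 12393 genes, and the exception was Nek2. The median log2 ratio of GW9662 over control was 0.61 for the 47 genes and 0.00 for all genes. A ratio of at least 1.5-fold higher was reached by 25 of the 47 genes, against 12.6% of all genes, and 1 gene, Nek2, was at least 1.5-fold lower, against 17.9% of all genes.

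Among the 45 mitotic genes whose signal reached 100 on at least 1 array, the log2 ratios had an SD of 0.31. The middle of the list ran from 0.45 to 0.85 on the log2 scale (quartiles), with a median of 0.62 or 1.53-fold. The corresponding quartiles of all 8206 genes with such a signal were -0.27 and 0.28, with a median of 0.02, and 52.5% of them were higher and 47.5% lower on the GW9662 array. Of the 45 mitotic genes, 44 were higher. The only spread these arrays give is that between probe sets of the same gene, an SD of 0.36 over 2639 genes, which holds no variation between mice. The log2 ratio exceeded this SD for 40 of the 47 mitotic genes, against 22.6% of all genes, and lay within it for Ccna2, Plk1, Aurka, Bub3, Cenpe and Kif23.

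**Figure D1:**
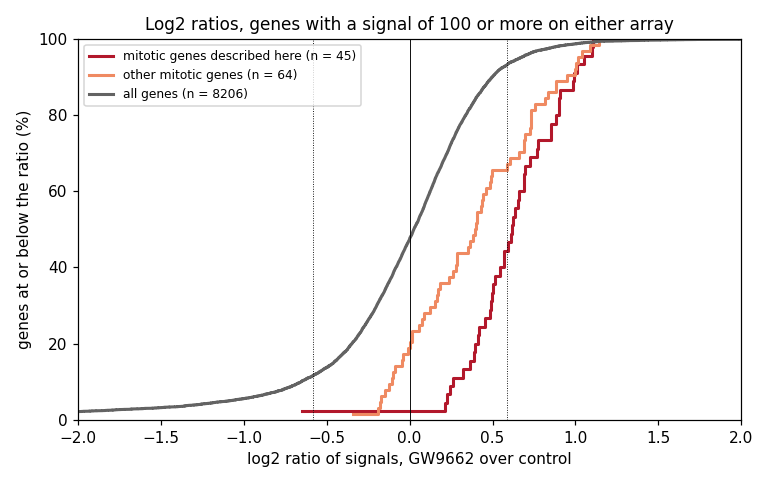
Cumulative share of genes (y axis, percent) at or below each log2 ratio of GW9662 over control (x axis, drawn between -2 and 2) for the 45 mitotic genes, for 64 other mitotic genes and for all 8206 genes that reached a signal of 100; dotted lines mark 1.5-fold. The curve of the mitotic genes lies to the right of that of all genes, with medians of 0.62 and 0.02.

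At the study's own thresholds, a signal of 300 on 1 array or both and a 3-fold difference, none of the mitotic genes counted as higher or lower, against 0.215% and 2.68% of the 6053 genes with such a signal. A signal of 300 was reached by 36 of the mitotic genes. Of these, 23 were at least 1.5-fold higher, against 6.41% of all genes, and none was at least 1.5-fold lower, against 9.80%. None was 2-fold lower, against 4.68%. Among the 36, 11 genes passed this minimum on the GW9662 array alone and none on the control array alone, against 5.19% and 7.34% of all genes past it, and such genes had to differ in that direction. With the minimum set on the mean of both arrays instead, all 30 mitotic genes left were higher, against 55.4% of all genes. Of these, 21 were at least 1.5-fold higher, against 5.83%, and none was as much lower, against 8.50%. At least 2-fold higher were Cenpa, Incenp and Kif2c, 3 of the 36, against 1.02% of all genes. All 3 ratios come from probe sets whose names end in _x_at or _a_at, which can match several transcripts. At its second probe set, without such a name, Incenp was 1.70-fold higher. Kif2c was lower at its second, dimmer probe set, and Cenpa had only 1.

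All 44 mitotic genes with a mean signal of at least 100 were higher. The share of all genes at that mean was not counted, and at a mean of 300 or more it was 55.4%. Mitotic genes with a mean signal of 1000 or more had a median log2 ratio of 0.71 (14 genes), those between 300 and 1000 had 0.66 (16 genes), and those between 100 and 300 had 0.47 (14 genes). All genes in the same classes had medians of 0.09, 0.02 and -0.05. Of the 3 mitotic genes below a mean of 100, Cenpe and Foxm1 were higher and Nek2 was lower.

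Genes of this kind are known to share promoter elements. In resting cells the DREAM complex holds them off through the CHR, an element of the letters TTTGAA or TTCGAA near the transcription start, and in dividing cells B-Myb and FoxM1 act at the same element, while the factor NF-Y binds CCAAT boxes next to it. Windows of 250 bases before to 50 after the start, taken from RefSeq on GRCm38.p6, were matched by symbol for 41 of the 49 genes (none was matched for Ccna2, Cdc25c, Aurkb, Incenp, Tpx2, Kif20a, Smc4 and Foxm1) and searched on both strands. A CHR sequence was found in the windows of 32 of the 41 genes (78.0%), against 21.7% of 27025 genes with a window, and CCAAT in 33 (80.5%), against 41.1%. Both were found in 29 (70.7%), against 8.61% of all genes and 6.21% of 6614 other genes that reached a signal of 100 here. The log2 ratio did not separate by these letters, since the 28 measured genes with both had a median of 0.63 (0.22 to 1.10) and the 10 without both had 0.69 (-0.65 to 1.05). A match describes the window and is not a site shown to be bound. The windows printed here, 5′ to 3′ on the gene's own strand, are those of Cenpa, the gene with the highest ratio, of Cdk1 and Cdc20, whose elements are close together, of Birc5, which had neither sequence and yet a log2 ratio of 0.99, and of Nek2, the only lower gene. Capitals mark the CHR and CCAAT letters, read on either strand.
Cenpa (chr5:30666636-30666935, plus strand): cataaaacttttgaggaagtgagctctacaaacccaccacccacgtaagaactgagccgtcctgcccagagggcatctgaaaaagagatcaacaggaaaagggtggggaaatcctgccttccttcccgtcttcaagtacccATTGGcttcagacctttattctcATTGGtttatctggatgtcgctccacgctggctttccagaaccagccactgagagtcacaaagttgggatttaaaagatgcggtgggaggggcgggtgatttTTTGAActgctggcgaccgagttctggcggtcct
Cdk1 (chr10:69352863-69353162, minus strand): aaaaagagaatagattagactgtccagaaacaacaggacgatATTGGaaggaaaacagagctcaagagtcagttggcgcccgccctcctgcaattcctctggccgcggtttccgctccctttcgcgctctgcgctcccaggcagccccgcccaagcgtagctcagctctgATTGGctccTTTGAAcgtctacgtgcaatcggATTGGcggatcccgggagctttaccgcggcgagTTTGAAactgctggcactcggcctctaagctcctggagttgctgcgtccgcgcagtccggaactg
Birc5 (chr11:117848987-117849286, plus strand): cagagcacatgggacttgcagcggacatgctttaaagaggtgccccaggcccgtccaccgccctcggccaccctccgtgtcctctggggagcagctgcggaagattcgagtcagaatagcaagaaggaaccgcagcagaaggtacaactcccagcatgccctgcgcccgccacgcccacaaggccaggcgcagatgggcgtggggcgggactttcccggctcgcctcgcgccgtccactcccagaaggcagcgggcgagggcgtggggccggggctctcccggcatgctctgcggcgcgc
Cdc20 (chr4:118437294-118437593, minus strand): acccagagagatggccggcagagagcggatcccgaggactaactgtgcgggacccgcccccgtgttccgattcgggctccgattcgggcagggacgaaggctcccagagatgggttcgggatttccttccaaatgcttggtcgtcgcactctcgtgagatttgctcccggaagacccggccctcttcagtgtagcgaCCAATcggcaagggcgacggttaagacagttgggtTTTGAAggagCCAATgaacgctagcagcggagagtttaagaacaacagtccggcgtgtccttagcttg
Nek2 (chr1:191821223-191821522, plus strand): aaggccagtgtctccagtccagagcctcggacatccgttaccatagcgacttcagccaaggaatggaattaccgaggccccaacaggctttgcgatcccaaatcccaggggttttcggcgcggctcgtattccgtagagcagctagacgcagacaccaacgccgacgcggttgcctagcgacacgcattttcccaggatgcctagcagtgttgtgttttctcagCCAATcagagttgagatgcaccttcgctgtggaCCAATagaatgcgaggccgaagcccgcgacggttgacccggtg
In Cdc20 a TTTGAA began 18 bases before the start between CCAAT boxes that began 53 and 8 bases before it. Cdk1 held TTTGAA at 71 and 15 bases before the start and CCAAT boxes at 208, 80 and 48, whereas the CHR of Cenpa lay 16 bases past the start. The Nek2 window held 2 CCAAT boxes and no CHR.

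Cyclin-dependent kinase 1 and its partners were higher as a group. All 7 measured genes of the 8 were higher in GW9662 tumors, with a median log2 ratio of 0.49. Cdk1, the kinase that drives entry into mitosis, had a signal of 1825.5 on the GW9662 array and 920.5 on the control array, 1.98-fold higher. Its binding partner Ccnb2, a B-type cyclin, had 1005 on the GW9662 array and 715.5 on the control array, 1.40-fold higher. Ccna2, the cyclin that acts from S phase into early mitosis, differed least, with 1129 on the GW9662 array and 973 on the control array. The difference for Ccna2 was small at its other probe set too (571 on GW9662, 507 on control). Cks1b and Cks2 encode small proteins that bind the kinase and help it reach its substrates. Cks2 was 1.62-fold higher (4211 on GW9662, 2606 on control) and Cks1b was 1.43-fold higher (5863 on GW9662, 4105 on control), and a dimmer probe set of Cks1b had a log2 ratio of 0.74. The phosphatases that remove the inhibitory mark from the kinase were read at low signals, 214 and 166 for Cdc25b and 132 and 100.5 for Cdc25c on the GW9662 and control arrays. Both were slightly higher.

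The mitotic kinases Plk1 and Aurka differed little, and Nek2 differed in the other direction. Bub1, Bub1b, Ttk and Aurkb, described below with their complexes, were higher by at least 1.5-fold. Plk1, which drives centrosome maturation and mitotic exit, had a signal of 409 on the GW9662 array and 342 on the control array, 1.20-fold higher. Aurka, the kinase of spindle poles, had 300.4 on the GW9662 array and 240.4 on the control array, a log2 ratio of 0.32. Nek2, a kinase that splits the centrosome pair before mitosis, had 70.8 on the GW9662 array and 111 on the control array, a log2 ratio of -0.65. Nek2 has 1 probe set, and its signal was low on both arrays.

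Spindle checkpoint genes, which delay separation until every chromosome is attached, were higher in all 5 cases, with a median log2 ratio of 0.61. The kinase Bub1 had a signal of 564 on the GW9662 array and 369 on the control array, 1.53-fold higher. BubR1 (Bub1b), which with Mad2 holds back the anaphase-promoting complex, was 1.58-fold higher (364 on GW9662, 229.8 on control), and Mad2l1 itself was 1.51-fold higher (1110.3 on GW9662, 735 on control). The checkpoint kinase Mps1 (Ttk) had 229 on the GW9662 array and 146 on the control array, 1.57-fold higher. Thus 4 of the 5 lay between 1.51-fold and 1.58-fold. The other was Bub3, the adaptor that brings Bub1 and BubR1 to kinetochores, which was 1.17-fold higher (2596 on GW9662, 2224 on control) at its brightest probe set and lower at a dimmer probe set (142 on GW9662, 183 on control).

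Among genes that reached a signal of 100, the chromosomal passenger complex had the highest median log2 ratio of the role groups, 0.99 over 3 genes. Centromere and kinetochore genes followed with 0.91 over 4, close to the 0.87 over 4 of the protein destruction genes. The 0.91 leaves out Cenpe, which was dimmer and had a log2 ratio of only 0.23, so the order of these 2 groups is not firm. Nor is the first rank, since Cdca8 was not analysed and all 3 values come from probe sets ending in _x_at or _a_at. Incenp had a log2 ratio of 0.77 at its second probe set, without such a name. Cenpa, the histone variant that marks the centromere, had a signal of 1726.5 on the GW9662 array and 803 on the control array, 2.15-fold higher and the highest ratio among the genes past 300. Kif2c, a kinesin that takes microtubules apart at kinetochores to correct faulty attachments, was 2.07-fold higher (607 on GW9662, 293 on control) at its brightest probe set. Its next probe set had a mean signal below 100 and was lower, with 77.7 on the GW9662 array and 108 on the control array, so the ratio of Kif2c rests on a single probe set. Cenpf, a large kinetochore protein of the G2 and M phases, was 1.71-fold higher (455 on GW9662, 266 on control). Ndc80, which binds microtubule ends, had 180.5 on the GW9662 array and 136 on the control array, and Cenpe, a kinetochore motor, was below 100 on both (85.6 on GW9662, 72.9 on control). Birc5 (survivin), Incenp and Aurkb form the complex that tests attachment tension and later directs cleavage. Birc5 had 1438 on the GW9662 array and 724 on the control array, 1.99-fold higher. Incenp, the scaffold of the complex, was 2.01-fold higher (1813 on GW9662, 902 on control), and 1.70-fold higher at its second probe set (436 on GW9662, 256 on control). The kinase itself, Aurkb, was 1.54-fold higher (402 on GW9662, 260.5 on control). All 3 measured subunits were thus higher by at least 1.5-fold.

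Genes of the protein destruction that ends mitosis were higher by similar amounts, with log2 ratios between 0.64 and 0.91. Cdc20, the activator of the anaphase-promoting complex, had a signal of 3069.6 on the GW9662 array and 1976 on the control array, 1.55-fold higher, and its other 2 probe sets had log2 ratios of 0.48 and 0.58. Ube2c, the enzyme that passes ubiquitin to the targets of this complex, was 1.88-fold higher (2988 on GW9662, 1593 on control). Pttg1 (securin), which restrains the protease that cuts cohesin, was 1.81-fold higher (3583 on GW9662, 1983.5 on control). Its second probe set was 2.03-fold higher (2088 on GW9662, 1028.5 on control). Cdca3, an F-box-like protein linked to mitotic entry, was 1.84-fold higher (733 on GW9662, 398.5 on control). All 4 genes passed 1.5-fold with a signal of at least 300.

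Spindle motors and microtubule-binding proteins were higher in all 7 cases, with a median log2 ratio of 0.57. Hmmr, a spindle-associated hyaluronan receptor, was 1.87-fold higher (526 on GW9662, 282 on control). Spag5 (astrin), which keeps sister chromatids together and spindle poles intact, was 2.14-fold higher with signals below 300 (264 on GW9662, 124 on control). The bipolar kinesin Kif11, which pushes spindle poles apart, had 347 on the GW9662 array and 226 on the control array, 1.53-fold higher. The remaining 4 lay below 1.5-fold. They were Tpx2, the activator of Aurora A (320.3 on GW9662, 216 on control), Tacc3, a microtubule crosslinker (315 on GW9662, 239.6 on control), and the chromosome-arm kinesins Kif22 (1019.5 on GW9662, 723 on control) and Kif4 (207 on GW9662, 148 on control). At its dimmer probe sets Kif22 had log2 ratios of 0.78 and 0.41.

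Cytokinesis genes were also higher in all 6 cases, with a median log2 ratio of 0.63. Prc1, which bundles the microtubules of the central spindle, was 1.87-fold higher (604.5 on GW9662, 324 on control). Ect2, the exchange factor that switches on RhoA at the cleavage site, was 1.80-fold higher (569 on GW9662, 316 on control), and Anln, which links actin and septins in the contractile ring, was 1.62-fold higher (1051 on GW9662, 647.5 on control). The partners of Ect2 in the central spindle differed less. Racgap1 had 401 on the GW9662 array and 284 on the control array, 1.41-fold higher, with a log2 ratio of 0.09 at its second probe set, and the kinesin Kif23 had 265 on the GW9662 array and 225 on the control array, 1.18-fold higher. Kif20a, a kinesin that brings the passenger complex to the midzone, was 1.48-fold higher (311 on GW9662, 209.7 on control).

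Among genes that compact chromosomes, all 5 were higher at their brightest probe sets, with a median log2 ratio of 0.55. Top2a, the topoisomerase that untangles sister chromatids, had a signal of 1534 on the GW9662 array and 929.7 on the control array, 1.65-fold higher. The condensin subunit Ncaph was 1.70-fold higher (1008 on GW9662, 591.5 on control), and 1.28-fold higher at its second probe set (324 on GW9662, 252 on control). Smc2 was 1.46-fold higher (1044 on GW9662, 714 on control), and Ncapd2 was 1.37-fold higher (278 on GW9662, 203 on control). Smc4, the partner of Smc2 in condensin, gave no single direction. Its probe sets had 1610.3, 977 and 258 on the GW9662 array, against 1206, 982 and 388 on the control array, with log2 ratios of 0.42, -0.01 and -0.59. The parts of the transcript that these probe sets read were not analysed here.

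Mki67, the antigen by which dividing cells are counted in tissue sections, was 1.61-fold higher, with a signal of 1281 on the GW9662 array and 796 on the control array. Foxm1, the transcription factor that activates many of the genes above, could not be measured well. It was below 100 on both arrays at its brightest probe set (84.6 on GW9662, 57.9 on control), and its other 3 probe sets were dimmer still.

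**Figure D2:**
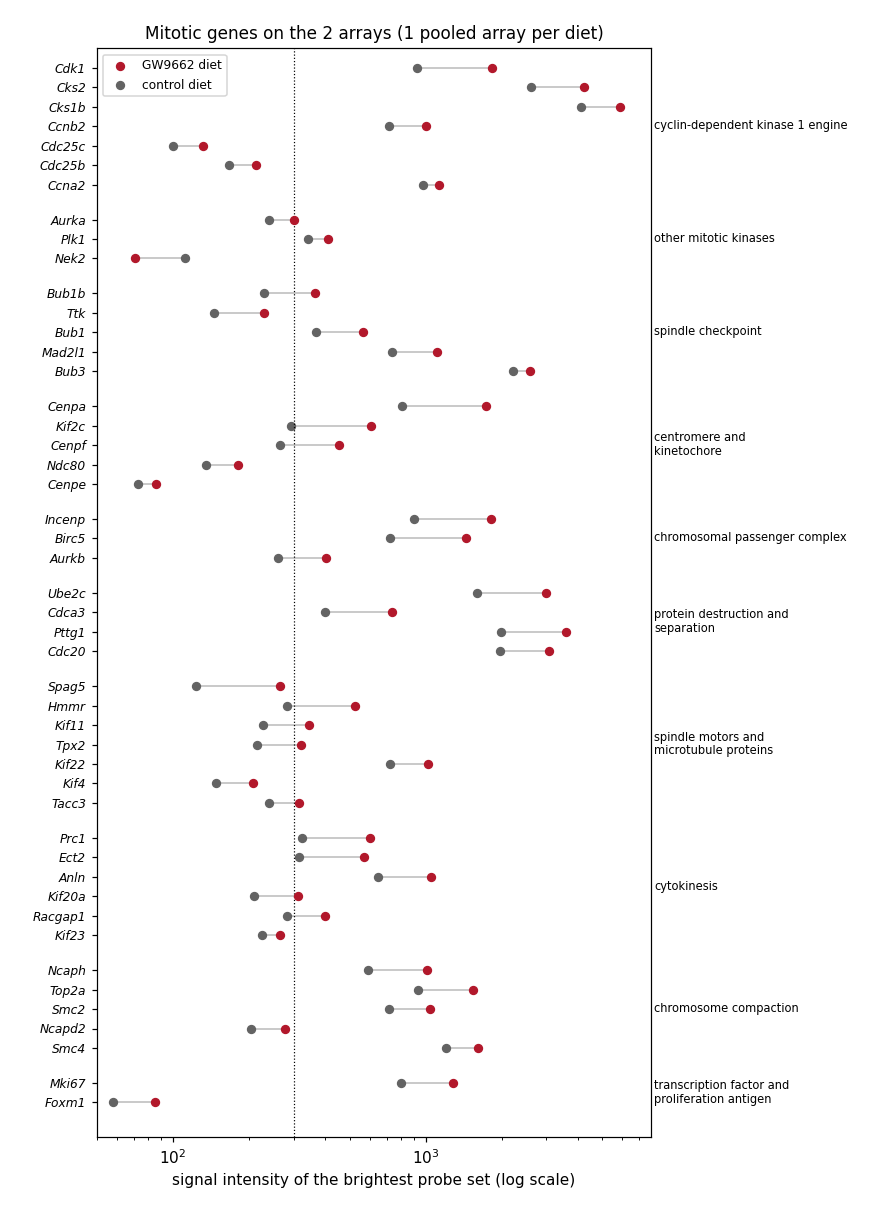
Signal intensity of the brightest probe set (x axis, log scale) of each of the 47 measured mitotic genes on the GW9662 array (red) and the control array (gray), 1 pooled array each, grouped by role; the dotted line marks a signal of 300. The red point lies to the right of the gray point for 46 genes, and to its left for Nek2.

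Probe sets of the same gene mostly gave similar ratios. Of 15 mitotic genes that had several probe sets past a mean signal of 100, 13 were higher at all of them, and the exceptions were Bub3 and Smc4. The range of log2 ratios within a gene had a median of 0.23, and the SD between probe sets was 0.25. Taking every probe set of these genes with a mean signal of at least 100, 59 were higher and 3 were lower, with a median log2 ratio of 0.61. All probe sets on the arrays, with no signal minimum, had a median of -0.01. Their share in each direction was not counted. The 28 dimmer probe sets were mixed, with 18 higher and 10 lower.

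**Figure D3:**
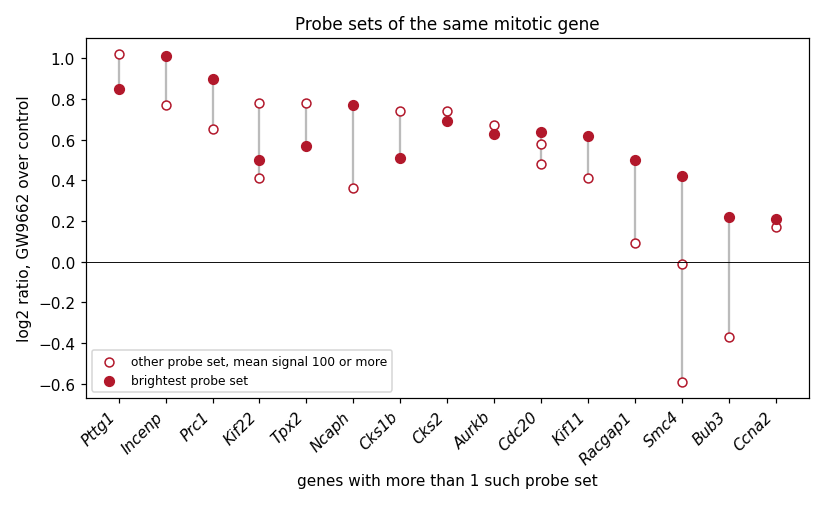
Log2 ratio of GW9662 over control (y axis) at each probe set with a mean signal of at least 100, for the 15 mitotic genes (x axis) that have more than 1; filled points are the brightest probe sets and lines join probe sets of a gene. All points lie above 0 except those of dimmer probe sets of Smc4 and Bub3.

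Other genes of mitosis outside the 49 were also higher, though by less. Of 89 genes on 4 further lists, 64 reached a signal of 100, with a median log2 ratio of 0.40. Of these, 52 were higher and 12 lower, against 52.5% and 47.5% of all genes with such a signal. Past a signal of 300, 12 of 42 were at least 1.5-fold higher, and none was as much lower, against 6.41% and 9.80% of all genes. Some of the 12, Zwilch and Aspm among them, passed this minimum on the GW9662 array alone and had to differ in that direction. With the minimum set on the mean of both arrays, the median log2 ratio was 0.32, against 0.05 for all genes. The count at 1.5-fold is not given for that setting. Kinetochore and checkpoint genes had the highest median (0.69, with 18 of 20 higher), and past a signal of 300 the highest ratio was that of Zwilch, which helps bring dynein to kinetochores (433 on GW9662, 216 on control). The 2 exceptions included Zwint, which anchors Zwilch's complex (851 on GW9662, 905 on control). Among spindle and cytokinesis genes (median 0.29, 17 of 22 higher), the pole protein Aspm was 2.20-fold higher (415 on GW9662, 188 on control), and the microtubule polymerase Ckap5 had 364.5 on the GW9662 array and 398 on the control array. Condensin and cohesin genes had a median of 0.30, with 7 of 10 higher. In this list Cdca5 (sororin), which protects cohesin until anaphase, had 691 on the GW9662 array and 428 on the control array, whereas the cohesin subunit Smc3, needed throughout interphase, had 697 on the GW9662 array and 797 on the control array. The subunits and regulators of the anaphase-promoting complex were nearly level (median 0.17, 10 of 12 higher, none past 1.5-fold), and past a signal of 300 they ran from Anapc11 (668 on GW9662, 473 on control) to Cdc16 (1607 on GW9662, 1723 on control).

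Lists of genes that act earlier in the cell cycle or regulate it had medians between -0.03 and 0.24. The G1 cyclins and their kinases had a median log2 ratio of -0.03, with 3 of 7 higher. In this list Cdk4 had a signal of 2537 on the GW9662 array and 1964 on the control array, and Ccnd3 (cyclin D3) had 449 on the GW9662 array and 622 on the control array. Inhibitors of these kinases and brakes on Cdk1 had a median of 0.11, with 7 of 11 higher, and spread widely. The inhibitor p27 (Cdkn1b) was 1.58-fold higher (1257.5 on GW9662, 794 on control), whereas p57 (Cdkn1c) was 3.21-fold lower (131 on GW9662, 422 on control), past the study's own 3-fold threshold. Regulators of mitotic genes in the DREAM complex and their relatives had a median of 0.24, with 9 of 12 higher. They ran from the NF-Y subunit Nfyb (427 on GW9662, 285 on control) to the retinoblastoma gene Rb1 (545 on GW9662, 824 on control). Whether these lists differ from the mitotic genes could not be tested with 1 array per diet.

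**Figure D4:**
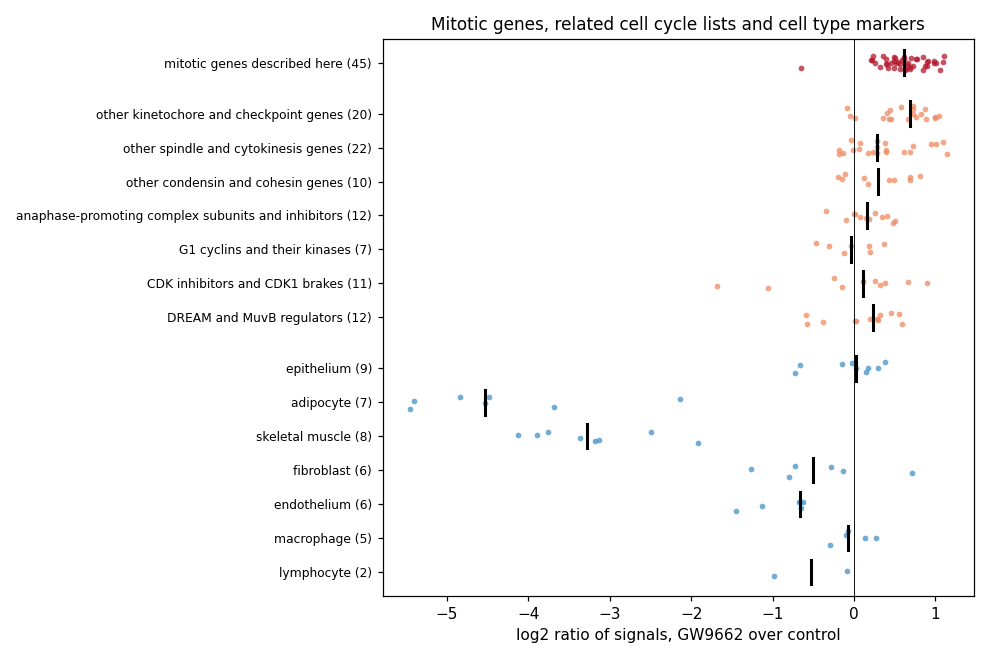
Log2 ratio of GW9662 over control (x axis) of each gene that reached a signal of 100, in the mitotic genes (red), related cell cycle lists (orange) and cell type marker lists (blue); black bars are medians and the number of genes is in parentheses. The mitotic genes center on 0.62, G1 cyclins on -0.03, epithelial markers on 0.03 and adipocyte markers on -4.53.

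Markers of other cell types also differed between the arrays. In pooled tumor RNA, fewer cells of a type and less RNA per cell cannot be told apart. All 7 measured adipocyte markers were lower, with a summed signal of 3878 on the GW9662 array and 33112.5 on the control array, and so were all 8 skeletal muscle markers (summed signals 1011 on GW9662 and 8746 on control). Markers of endothelium (6 of 6 lower, 1630.5 on GW9662 and 2847 on control) and of fibroblasts (5 of 6 lower, 20889.8 on GW9662 and 28919 on control) were also lower. Macrophage markers were close to level (3 of 5 lower, 12191.5 on GW9662 and 13589 on control), and of 7 measured lymphocyte markers only Cd3g and Ptprc reached 100, both lower (847.5 on GW9662 and 932 on control over all 7). No marker was at 0 on either array. The part of these tissues in the ratios of the mitotic genes was not tested. The epithelial markers, which mark the labelled mammary tissue, were level in sum, with 5 of 9 higher, a median log2 ratio of 0.03 (from -0.72 for Krt14 to 0.38 for Cdh1) and summed signals of 44981 on the GW9662 array and 44122.5 on the control array. Of the 9, 2 were at least 1.5-fold lower, against 9.80% of all genes, and none was as much higher, against 6.41%. These 2 were Krt14 and Krt5 (793 on GW9662, 1256 on control), and the sum rests mostly on brighter markers. Set against that epithelial median, the 45 mitotic genes had a median log2 ratio of 0.59, and 44 were higher, against 49.9% of all genes. At least 1.5-fold higher were 22 of 36, against 5.53%.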

How the data were processed

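For each probe set, the authors deposited a linear signal intensity on each of the 2 arrays. According to the methods, RNA pooled from 5 mice per diet was labelled with biotin as cRNA, and raw data came from Affymetrix GeneChip Operating Software. The way probe pairs were combined and arrays scaled is not given in the sources used here. Both arrays had a 2% trimmed mean of 500.0, and signals were used as deposited. Of 22690 probe sets, 20380 had 1 gene in the platform annotation, updated by gene identifier with RefSeq names (GRCm38.p6), 691 had several, 1555 had none named here and 64 were controls. The 3 control signals of 0 were read as 0.1. With 1 array per diet no test was run. Genes were described by signals, log2 ratios and counts at 1.5-fold or 3-fold, beside the share of all genes. Every measured member is given at its brightest probe set. Other probe sets of mean signal 100 or more are given where they differ in direction or by over 0.5 (Bub3 and Smc4). For some other members they are given by no fixed rule. Of each related list the largest rise and fall past 300 are given. The second probe set of Kif2c and the printed promoters were chosen after their values were seen. The members and lists were chosen with earlier results of these data known. The counting rule was run on simulated signals with the same noise at all signal levels, which checks the code and not the noise of these arrays. Alternatives covered scaling, signal minimums, folds and the choice of probe set. Scripts ran in Python 3.11.15 (numpy 2.4.6, pandas 2.3.3), and plots were drawn with matplotlib 3.10.9.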

Additional observations from a re-analysis of the deposited data

How the results depend on the processing

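The median log2 ratio of the mitotic genes stayed above 0 in every setting tried, between 0.52 and 0.78. That of the other mitotic genes was 0.40, between 0.28 and 0.56. None of the 47 measured genes reached 3-fold in any setting, but the direction of single genes varied. With the median over probe sets, or with the second brightest probe set, 42 of 45 mitotic genes were higher. The share of all genes is not given for these settings. Without probe sets whose names end in _s_at, _x_at or _a_at, which can match several transcripts, 11 of 20 mitotic genes were at least 1.5-fold higher, against 5.86% of all genes. At any size, 29 of 32 were higher, against 49.2%. Kif2c was then among the lower genes (77.7 on GW9662, 108 on control). With 2-fold in place of 1.5-fold, 3 of 36 were higher, against 1.02% of all genes. With a signal minimum of 500 on either array, all 26 genes left were higher. That minimum could be passed on the GW9662 array alone, and the share of all genes is not given for it. With a minimum of 100 or none, 1 gene (Nek2) was at least 1.5-fold lower. The 18 hybridization control probe sets had a median of -0.16 on the log2 scale. Centring on them, chosen after seeing the data, moved the median of all genes with a signal of 300 to 0.21, put 30 of 36 mitotic genes at least 1.5-fold higher, against 14.4% of all genes, and made 67.6% of all calls at 1.5-fold higher ones, in place of 39.6%. Centring on epithelial markers and the minimum on the mean signal were also chosen after seeing the data. No detection calls or background levels were used, so how far low signals lay above background is unknown. No paired analysis was possible because each diet has 1 array.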

Other observations

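Other genes than the 49 also held the promoter letters that most of the mitotic genes share. Among 411 other genes with a signal of at least 100 whose windows held both CHR and CCAAT, the median log2 ratio of GW9662 over control was 0.08, and 57.9% were higher. The 3230 genes with neither had a median of 0.03, and 52.6% were higher. Past a signal of 300, 7.64% of the genes with both and 5.85% of those with neither were at least 1.5-fold higher. The shares at least 1.5-fold lower were 7.96% with both and 8.50% with neither. These values are a description, since genes on 2 arrays are not replicates.

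Among the brakes of the cell cycle, Cdkn2c, which encodes p18, an inhibitor of the G1 kinases Cdk4 and Cdk6, had a signal of 582 on the GW9662 array and 1203 on the control array, 2.07-fold lower. It was named after its value was seen.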
